A study of Homo sapiens with 5 samples.

Results

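The genes described here were 52 interferon-stimulated and RNA-sensing genes, found by their symbols among the 26364 names of the normalized count table, and all 52 were listed. They were followed in IMR-90 cells, a line of human lung fibroblasts, in which NSD2, a histone H3K36 methyltransferase, was knocked down by siRNA, and poly(A) RNA was sequenced 24 hr after transfection. The 2 Ctr-KD libraries (Ctr-1 and Ctr-2) came from cells given an siRNA against the firefly luciferase gene GL3, and the 3 NSD2-KD libraries (NSD2-1, NSD2-2 and NSD2-3) each came from cells given a different siRNA against NSD2. All 5 libraries were from cells transfected with siRNA and lipid reagent, and untransfected cells were not analysed here, so a response shared by every transfected culture cannot be seen in these comparisons. With 1 library per siRNA, the sequence of an siRNA and the culture that received it cannot be told apart. The question was whether any single NSD2 siRNA raised these genes over the control siRNA.

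Cells detect foreign RNA with cytosolic helicases of the RIG-I family, which signal through the mitochondrial adaptor MAVS, and with endosomal Toll-like receptors. Both routes activate IRF and NF-κB factors that induce type I interferons and chemokines, and secreted interferon then acts through its receptor, JAK kinases and factors that include STAT2 and IRF9 on a large set of antiviral genes. Synthetic small RNAs can engage these sensors in some cells, and fibroblasts are able to make and answer interferon.

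The factors activated by type I interferon bind the interferon-stimulated response element, searched here as the letters GAAANNGAAA or TTTCNNTTTC on the printed strand, overlapping matches included. A RefSeq promoter window (GRCh38.p14, 250 bases before to 50 after a gene start) was given for 42 members, and 25 of them (59.5%) held these letters, against 4.38% of 27305 symbols with a window and 3.57% of 35116 windows. The stretches below belong to the 7 members that held the letters and passed a 1.5-fold difference with at least 1 NSD2 siRNA. They are shown in the direction of transcription, with positions from their exact match to GRCh37 and with the searched letters in capitals, so that the members that differed can be compared in sequence.
ISG15, chr1:948750-948799, plus strand: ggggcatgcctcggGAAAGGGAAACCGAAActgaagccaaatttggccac
IFIT1, chr10:91152257-91152306, plus strand: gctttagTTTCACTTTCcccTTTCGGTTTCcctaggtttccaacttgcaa
IFIT3, chr10:91087612-91087661, plus strand: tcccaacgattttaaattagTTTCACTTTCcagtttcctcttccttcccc
OAS3, chr12:113376247-113376296, plus strand: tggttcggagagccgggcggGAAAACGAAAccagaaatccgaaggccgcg
PARP9, chr3:122283159-122283208, minus strand: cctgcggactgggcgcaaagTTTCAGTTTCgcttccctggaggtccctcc
PARP12, chr7:139762732-139762781, minus strand: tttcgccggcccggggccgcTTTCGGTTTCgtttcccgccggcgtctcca
SAMD9, chr7:92747399-92747448, minus strand: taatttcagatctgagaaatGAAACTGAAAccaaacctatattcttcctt
The letters stood on both sides of such differences, since ISG15 and OAS3 are among the members counted lower and the other 5 among those counted higher with some siRNA. A match is a description of these windows and does not show that a factor binds there.

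The 5 libraries held between 2473691 and 2845063 reads on genes. NSD2, listed under its older symbol WHSC1, was at 463 and 443 normalized counts in the Ctr-KD libraries and at 90.2, 81.9 and 87.9 in NSD2-1, NSD2-2 and NSD2-3, and it fell by 2.37 on the log2 scale (SE 0.12, limma adjusted p = 0.000464). Ctr-1 and Ctr-2 differed by little more than counting error, with a chi-square of 1.046 per degree of freedom over 12373 genes (p = 0.000175), while every other pair of libraries gave 3.87 to 5.29. The study's methods call the libraries biological replicates, and p-values here measure the spread between these 5 libraries. Of the cell type markers, 13 of 14 fibroblast genes reached a mean normalized count of at least 10, against 1 of 12 for blood cells (CD68), 1 of 8 for epithelium (CLDN4) and 1 of 7 for endothelium (TEK), and none of these 16 marker genes differed between Ctr-KD and NSD2-KD cells in the limma comparison.

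Of the 52 members, 34 reached a mean of at least 10 normalized counts, that is, reads divided by a size factor for the depth of each library, and were tested among 11313 genes. In the comparison of all NSD2-KD with all Ctr-KD libraries, limma called 0 of these 34 members higher and 0 lower at an adjusted p below 0.05, against 0.0354% of tested genes called higher and 0.053% called lower. At an unadjusted p below 0.05, 1 member was higher (PARP9) and 0 were lower, which is 2.94% of the members beside 9.18% of all tested genes. The count tests of edgeR and DESeq2 and limma-voom also called 0 members. The median log2 difference of the members was 0.05, beside -0.0089 for all tested genes, with 20 members above and 14 below 0. In bulk RNA, a lower level in every cell and fewer cells with that RNA cannot be told apart, and this holds for every value here.

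The limma intervals show what sizes of change these 5 libraries leave possible. For 29 of 34 members the 95% interval of the log2 difference lay under 1, a 2-fold rise, and for 5 it reached 1. The highest upper bound was 1.25, for IFIT1, and the lowest lower bound was -1.44, for USP18.

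**Figure D1:**
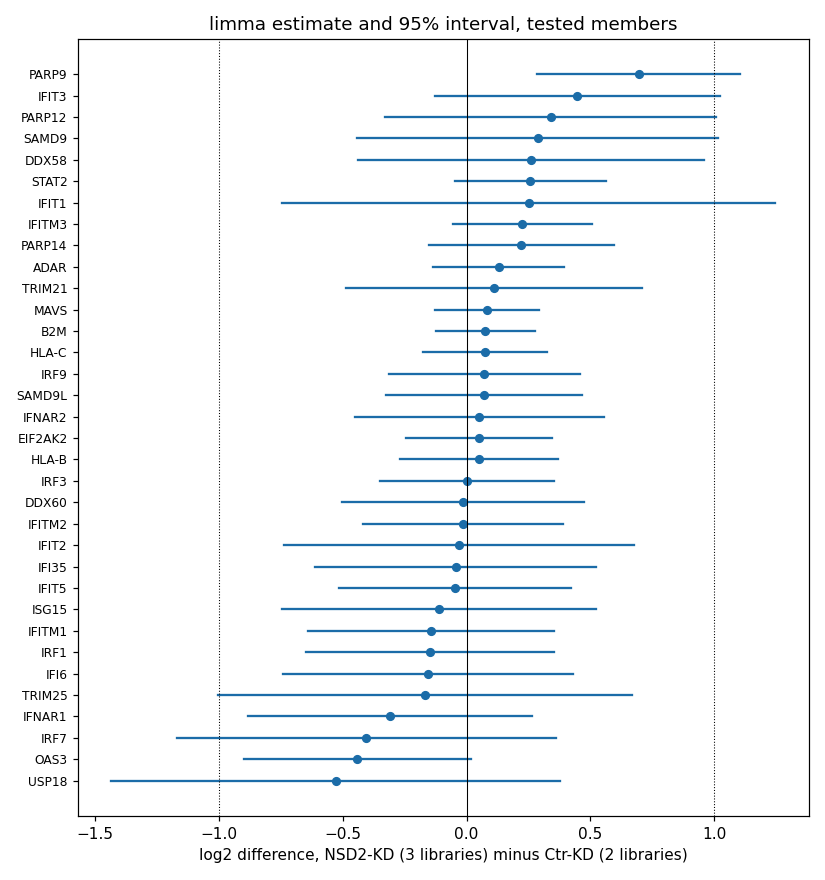
The log2 difference between 3 NSD2-KD and 2 Ctr-KD libraries (x axis) is drawn for each of the 34 tested members, with points for the limma estimate, bars for its 95% interval and dotted lines at log2 differences of -1 and 1. PARP9 has the highest estimate, and only its interval leaves out 0.

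Compared siRNA by siRNA, no library showed the members higher throughout. Their median log2 difference from Ctr-KD was -0.04 with NSD2-1, 0.14 with NSD2-2 and 0.04 with NSD2-3, beside 0.0055, 0.012 and 0.0044 for all tested genes, and it was 0.04 between Ctr-2 and Ctr-1. The members above the Ctr-KD mean were 16 of 34 with NSD2-1 (47.1%, beside 50.8% of all tested genes), 25 with NSD2-2 (73.5%, beside 51.5%) and 21 with NSD2-3 (61.8%, beside 50.6%), so that most of them lay slightly above Ctr-KD with NSD2-2. Between Ctr-2 and Ctr-1, 18 of 34 were positive. The 3 comparisons share both Ctr-KD libraries. A member was counted as higher or lower when it differed from the Ctr-KD mean by at least 1.5-fold on the log2(normalized count + 1) scale and lay beyond both Ctr-KD libraries, a rule that gives no p because each siRNA had 1 library.

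With NSD2-1, 1 of 34 members was higher (PARP9) and 2 were lower (ISG15 and TRIM25), beside 3.44% of all tested genes higher and 7.13% lower. NSD2-2 gave 3 higher members (DDX58, PARP9 and SAMD9) and 2 lower ones (IFNAR1 and OAS3), beside 4.38% higher and 9.93% lower. In the NSD2-3 library 4 members were higher (IFIT1, IFIT3, PARP9 and PARP12) and 2 were lower (IRF7 and USP18), beside 3.85% higher and 7.4% lower. With NSD2-3 left out, 33 members reached the minimum and IFIT1 did not. IFIT1 was thus tested only through the library in which it was counted higher, and its count there is not independent of the filter. At the shares of all tested genes, 1.17, 1.49 and 1.31 of 34 members would have been counted higher and 2.43, 3.38 and 2.52 lower with the 3 siRNAs in turn. Between Ctr-2 and Ctr-1, 0 members passed 1.5-fold in either direction, beside 2.65% of all tested genes higher and 2.63% lower. That comparison sets 1 library against 1 and has no second control to lie beyond, so its shares are not on quite the same rule.

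Over the 3 siRNAs, 12 of 34 members (35.3%) passed 1.5-fold in either direction with at least 1 siRNA, beside 26.6% of all tested genes, and 22 stayed within it with all 3. The 12 include IFIT1, which reached the minimum for testing only through NSD2-3. PARP9 was the 1 member (2.94%) counted higher with more than 1 siRNA, beside 2.23% of all tested genes, and it was so with all 3, beside 0.424%. Lower with more than 1 siRNA were 0 members, beside 4.72%. The 3 siRNAs share their controls. Of the 14 single differences past 1.5-fold, 13 had a 95% counting interval that left out 1, the exception being IRF7 with NSD2-3. Such an interval covers the sampling of reads only, not the spread between cultures. The 14 were picked from the same reads for their size, so the 13 intervals are not separate evidence of a difference.

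**Figure D2:**
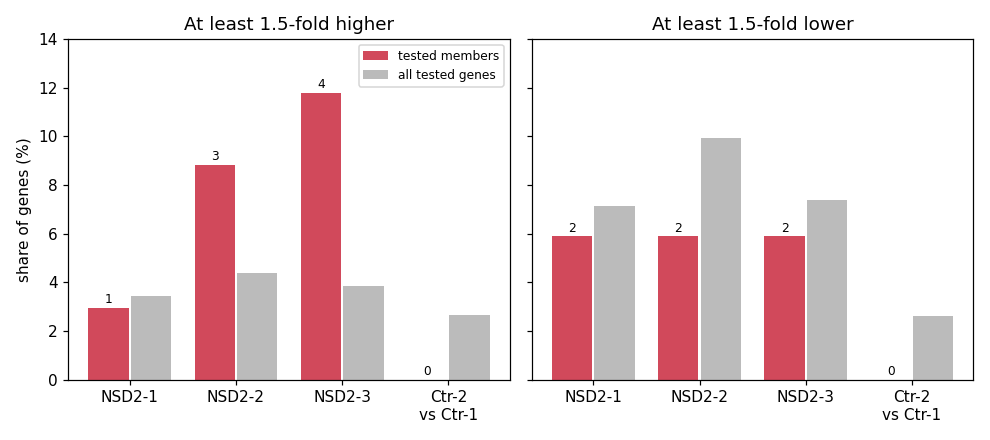
Bars give the share of genes (y axis, in percent) at least 1.5-fold higher (left) or lower (right) in each NSD2-KD library than in Ctr-KD, and in Ctr-2 than in Ctr-1, for the 34 tested members (red, with the number of members above the bar) and all 11313 tested genes (grey). The members' share of higher genes was 2.94%, 8.82% and 11.8% for NSD2-1, NSD2-2 and NSD2-3, and their share of lower genes was 5.88% with each. The 11.8% includes IFIT1, which reached the minimum for testing only through NSD2-3.

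**Figure D3:**
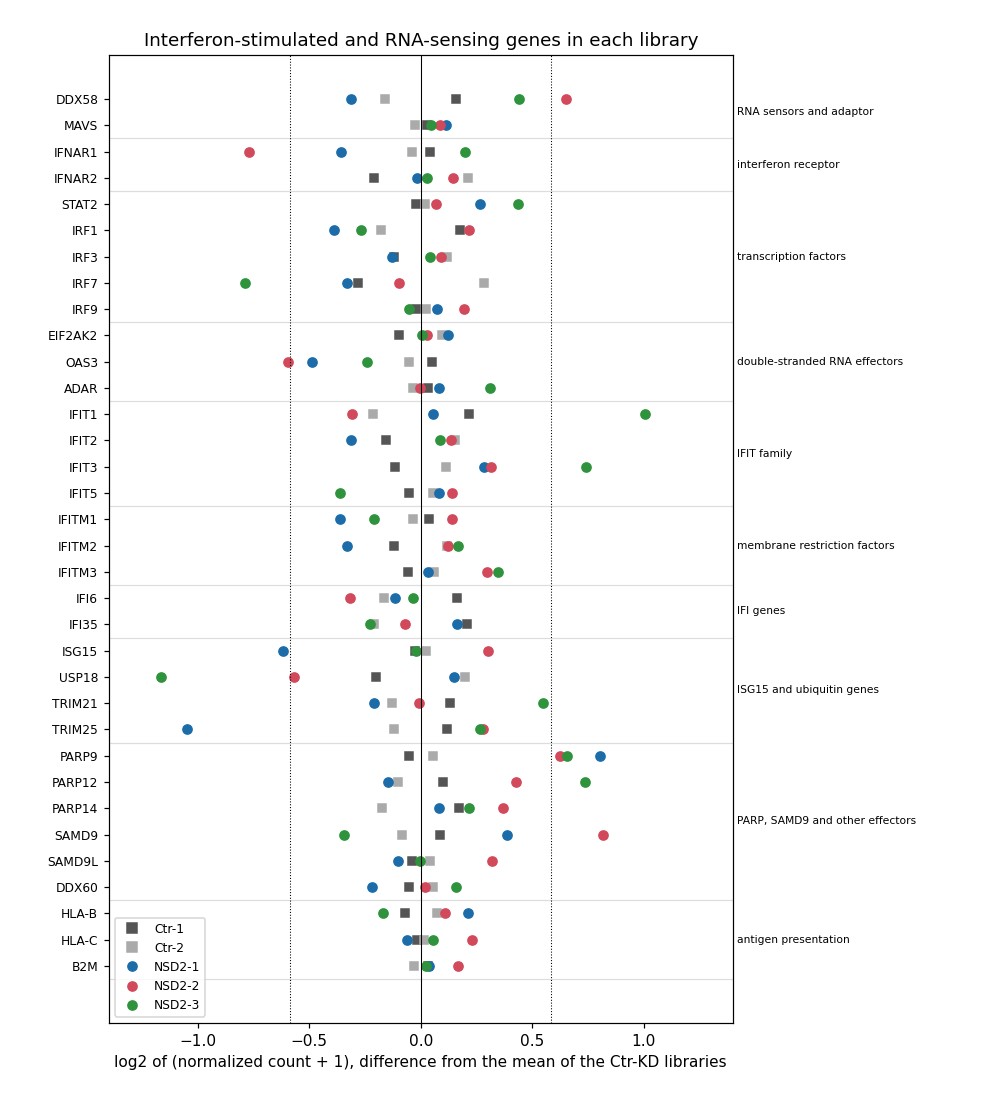
Each row is 1 tested member, grouped by role, and each mark is 1 library at its log2(normalized count + 1) minus the mean of Ctr-1 and Ctr-2 (x axis); squares are Ctr-KD, circles NSD2-KD, and dotted lines mark 1.5-fold. Circles of different colours lie at the extremes of different genes, and PARP9 is the 1 row with all 3 circles beyond the right dotted line.

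PARP9, an ADP-ribosyltransferase family member that forms a complex with the ubiquitin ligase DTX3L, stood at 37.2 normalized counts in Ctr-1 and 40.1 in Ctr-2. It was at 68.1 in NSD2-1, 60.1 in NSD2-2 and 61.5 in NSD2-3, so that every NSD2-KD library lay above both controls. The ratio to Ctr-KD was 1.77 (95% counting interval 1.27 to 2.46), 1.56 (1.08 to 2.23) and 1.59 (1.13 to 2.25) in that order. The limma log2 difference was 0.70 (SE 0.18), and the limma adjusted p of 0.267, the lowest of any member, did not pass. PARP9 (GRCh37 chr3:122246771-122283424, minus strand) overlaps DTX3L on the other strand, and because the strand setting of the counting was not stated, reads of the 2 genes may not be fully separated. DTX3L itself was at 120 and 104 in Ctr-KD and 135, 121 and 126 in NSD2-KD libraries, a narrower difference.

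Of the 34 tested members, 4 had every NSD2-KD library above both Ctr-KD libraries (PARP9, STAT2, IFIT3 and MAVS), which is 11.8% of the 34 beside 13.8% of all tested genes. OAS3 was the 1 member with every NSD2-KD library below both, 2.94% beside 13.9%. Both shares lay under the background. Among the untested members, HERC6, a HECT ubiquitin ligase family gene, also had groups that did not overlap, at 5.72 and 3.09 normalized counts in Ctr-KD and 6.44, 7.65 and 8.79 in NSD2-KD libraries. It had 3 to 9 reads per library, and its ratio with NSD2-3, 1.97, had a counting interval of 0.694 to 5.61.

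Among the sensors, DDX58, which encodes the helicase RIG-I, differed between the siRNAs. It was at 40.0 and 31.9 normalized counts in Ctr-KD and at 28.5, 56.8 and 48.8 with NSD2-1, NSD2-2 and NSD2-3. NSD2-2 was 1.57 times Ctr-KD (counting interval 1.08 to 2.28) and NSD2-1 lay below both controls. MAVS, the adaptor on which RIG-I and MDA5 converge, was nearly level at 597 and 575 in Ctr-KD and 635, 623 and 605 in NSD2-KD libraries. IFIH1, which encodes the sensor MDA5, was under the minimum for testing, with 3.81 and 6.17 in Ctr-KD and 5.52, 10.9 and 13.7 in NSD2-1, NSD2-2 and NSD2-3. Its ratio with NSD2-3 was 2.76, with a counting interval of 1.14 to 6.95.

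The interferon receptor chain IFNAR1 was at 200.1 and 189 in Ctr-KD and at 152, 114 and 224 in the NSD2-KD libraries. It was lowest with NSD2-2, at 0.583 of Ctr-KD (counting interval 0.465 to 0.725), while NSD2-3 lay above both controls. Its partner chain IFNAR2 stayed within 1.5-fold with all 3 siRNAs.

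Of the transcription factors, STAT2, the subunit specific to the interferon complex, was at 262 and 270 in Ctr-KD and 320, 279 and 360 in NSD2-KD libraries. Its groups did not overlap, and the log2 difference of 0.26 (SE 0.13) did not pass (limma adjusted p = 0.619). IRF7, a factor that amplifies interferon induction, had 14.3 and 21.6 in Ctr-KD and 13.8, 16.4 and 9.76 in NSD2-KD libraries. Its NSD2-3 value, lower than both controls, had the 1 interval among the 14 that reached 1. IRF1, IRF3 and IRF9 stayed within 1.5-fold in every library.

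Of the enzymes that act on double-stranded RNA, OAS3, which makes the oligoadenylate that activates RNase L, was at 55.3 and 51.4 in Ctr-KD and 37.7, 35.0 and 44.9 in NSD2-1, NSD2-2 and NSD2-3. All 3 were below both controls, and the log2 difference was -0.44 (SE 0.20, limma adjusted p = 0.562). ADAR, the RNA-editing deaminase, was at 703 and 672 in Ctr-KD and 727, 685 and 854 with NSD2-KD. NSD2-3 was 1.24 times Ctr-KD (counting interval 1.14 to 1.35), under 1.5-fold, and NSD2-2 lay between the controls. EIF2AK2, which encodes the kinase PKR, stayed within 1.5-fold in every library.

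The IFIT genes, whose products bind viral RNA and which are among the genes most strongly induced by interferon, included 2 members, IFIT1 and IFIT3, that were highest with NSD2-3. IFIT1 was at 11.4 and 8.23 normalized counts in Ctr-KD, 10.1 in NSD2-1, 7.65 in NSD2-2 and 20.5 in NSD2-3. The NSD2-3 value was 2.07 times Ctr-KD, with a counting interval of 1.07 to 4.03, and the other NSD2-KD libraries lay near the controls. Without the NSD2-3 library, IFIT1 fell under the minimum mean for testing. IFIT3 was at 20.01 and 23.7 in Ctr-KD and 26.7, 27.3 and 37.1 in NSD2-KD libraries, and NSD2-3 was 1.70 times Ctr-KD (1.08 to 2.69). Both other family members were within 1.5-fold, and IFIT5 was lower in NSD2-3, at 49.8, than in Ctr-KD, at 61.9 and 66.9. IFIT2 and IFIT3 overlap LIPA on the other strand, so their reads are uncertain in the same way as those of PARP9, whereas IFIT1 overlaps no annotated gene.

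**Figure D4:**
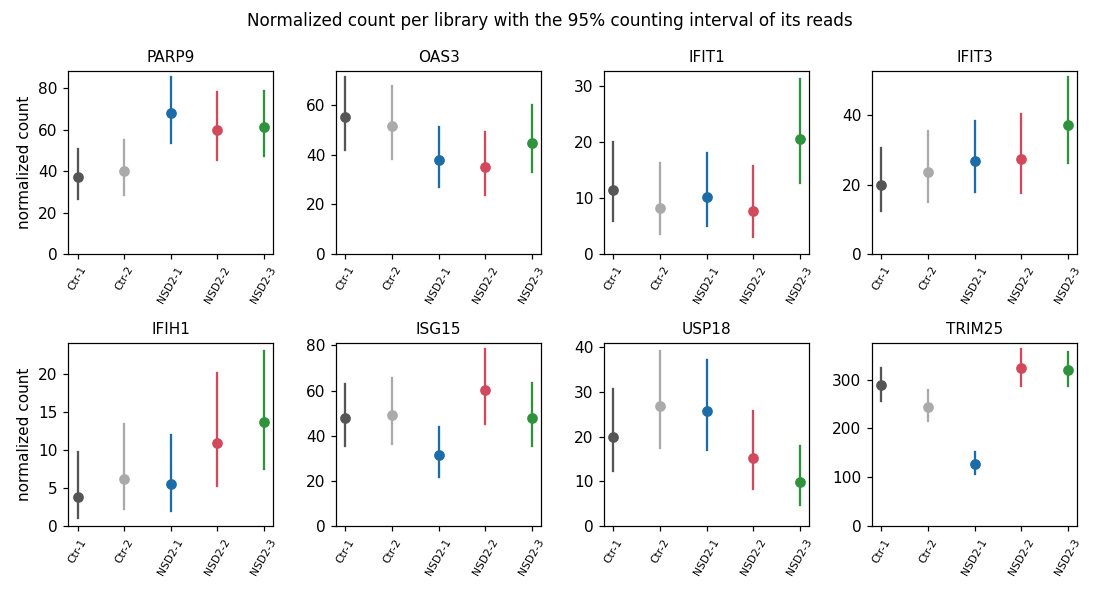
Normalized counts (y axis) of 8 members are shown in each of the 5 libraries (x axis), with bars for the exact 95% counting interval of the reads. PARP9 is higher in all 3 NSD2-KD libraries, OAS3 lower in all 3, IFIT1 and IFIH1 highest in NSD2-3, and TRIM25 lower in NSD2-1 alone.

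The IFITM genes encode membrane proteins that block viral entry. IFITM3 was at 441 and 478 in Ctr-KD and 470, 565 and 584 in NSD2-KD libraries, where NSD2-1 lay between the controls and the other 2 above them. IFITM1 and IFITM2 stayed within 1.5-fold. Of the IFI genes, IFI35 was at 33.3 and 24.7 in Ctr-KD and 32.2, 27.3 and 24.4 in NSD2-KD libraries, and IFI6 was also within 1.5-fold.

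Around ISG15, a ubiquitin-like protein that is conjugated to other proteins during the interferon response, the siRNAs pointed in different directions. ISG15 was at 47.6 and 49.4 in Ctr-KD, 31.3 in NSD2-1, 60.1 in NSD2-2 and 47.8 in NSD2-3. The NSD2-1 value was 0.645 of Ctr-KD (counting interval 0.424 to 0.962), and NSD2-2 lay above both controls. USP18, the protease that removes ISG15 and restrains receptor signalling, was at 20.01 and 26.8 in Ctr-KD and 25.8, 15.3 and 9.76 in the NSD2-KD libraries, so NSD2-3 was at 0.42 of Ctr-KD (0.189 to 0.842). TRIM25, a ubiquitin ligase that acts with RIG-I, was at 289 and 245 in Ctr-KD, 128 in NSD2-1, 323 in NSD2-2 and 320.2 in NSD2-3. TRIM25 with NSD2-1, at 0.478 of Ctr-KD (0.394 to 0.577), was thus 1 library against 4, and the gene overlaps C17orf67 and MIR3614 on its own strand and DGKE on the other.

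Among the remaining effectors, PARP12, an antiviral mono-ADP-ribosyltransferase, was at 28.6 and 24.7 in Ctr-KD and 23.9, 36.1 and 44.9 in NSD2-KD libraries. NSD2-3 was 1.68 times Ctr-KD (counting interval 1.11 to 2.54) and NSD2-1 was below both controls. SAMD9, a restriction factor for poxviruses, was at 47.6 and 42.2 in Ctr-KD and 58.9, 79.7 and 35.1 in NSD2-KD libraries, with NSD2-2 at 1.77 times Ctr-KD (1.28 to 2.44) and NSD2-3 below both controls. PARP14, another member of that family, was at 133 and 105 in Ctr-KD and 125, 153 and 138 with NSD2-KD, within 1.5-fold each time. In antigen presentation, B2M, the light chain of MHC class I, was at 1680 and 1607 in Ctr-KD and 1684, 1844 and 1669 in NSD2-KD libraries, and HLA-B and HLA-C were also within 1.5-fold.

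Of the 28 tested members with a promoter window, the 16 with the searched letters had median log2 differences of 0.03, 0.15 and 0.09 with NSD2-1, NSD2-2 and NSD2-3, and the 12 without had 0.01, 0.15 and 0.05. Counted higher with NSD2-1, NSD2-2 and NSD2-3 were 1, 2 and 4 of the 16 with the letters. The 4 include IFIT1, which reached the minimum for testing only through NSD2-3. Of the 12 without, 0, 1 and 0 were counted higher. Counted lower were 1, 1 and 0 in both groups alike. Of all tested genes, 3.44%, 4.38% and 3.85% were counted higher and 7.13%, 9.93% and 7.4% lower. The difference between the groups with and without the letters was not tested.

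Under the minimum for testing were 18 members, and 2 of them (OAS1 and PSMB9) had 0 reads in every library, which allows up to 3 reads, or 2.76 to 3.28 normalized counts, in each. Several of these are among the genes most often read as markers of interferon. MX1, a dynamin-like GTPase, was at 1.91 and 2.06 normalized counts in Ctr-KD and 1.84, 2.19 and 4.88 in NSD2-1, NSD2-2 and NSD2-3. Summed over the 14 untested members outside the MHC region, there were 28 and 23 reads in Ctr-KD and 30, 35 and 50 in NSD2-1, NSD2-2 and NSD2-3. The sum in NSD2-3 was 1.93 times Ctr-KD (95% counting interval 1.28 to 2.92), against 1.52 (0.957 to 2.38) with NSD2-2 and 1.09 (0.673 to 1.75) with NSD2-1. Without IFIH1, which carried the most of these reads in NSD2-3, it was 1.73 (1.08 to 2.78). The sum was formed after single values were seen, and it rests on 1 library per siRNA.

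The other 4 untested members, HLA-E, PSMB8, PSMB9 and TAP1, had between 0 and 3 reads in all per library, and their level cannot be read. They lie between HLA-F and DAXX (GRCh37 chr6:29690552-33290793), where 6 of 137 listed protein-coding genes (4.38%) reached a mean of 10, against 441 of 770 (57.3%) on the rest of chromosome 6, and 129 (94.2%) stayed under 3, against 37.9%. Genes there that every cell uses were near 0 as well, such as RPS18, a ribosomal protein gene, with at most 2 reads per library, and CSNK2B, a kinase subunit gene, with 0 in each. HLA-B and HLA-C are among the few genes of that stretch with reads, and the share of their reads that was kept is unknown. Only uniquely mapped reads were counted, and what emptied the region was not tested.

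The pathway upstream and downstream was looked at with lists outside the 52 members. Of 21 interferon ligand genes, 0 reached the minimum, 19 had 0 reads in all 5 libraries and 20 had at most 3 in each; IFNB1, the interferon that fibroblasts make first, had 0 in every library. Of 18 chemokines and cytokines 3 were tested and limma called 0. Counted higher with NSD2-2 were 2, beside 4.38% of all tested genes, and 1 was lower with NSD2-3, beside 7.4%. LIF, a cytokine of the interleukin-6 family chosen after its values were seen, was at 59.1 and 45.3 in Ctr-KD and 66.3, 108 and 36.1 in NSD2-1, NSD2-2 and NSD2-3. CCL2, a monocyte chemokine chosen in the same way, was at 12.4 and 16.5 in Ctr-KD and 18.4, 24.0 and 6.83 in NSD2-KD libraries, so both were highest with NSD2-2 and lowest with NSD2-3. CXCL10, a chemokine that marks interferon signalling, was at 1.91 and 1.03 in Ctr-KD and 0 in each NSD2-KD library, and CCL5 was at 0 in every library. The CXCL10 values in Ctr-KD were 2 and 1 reads, which cannot be told from 0.

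Of 24 further sensing and signalling genes 15 were tested and limma called 0 in either direction. With NSD2-1, NSD2-2 and NSD2-3 in turn, 0 were counted higher, beside 3.44%, 4.38% and 3.85% of all tested genes. With each siRNA 1 was counted lower, beside 7.13%, 9.93% and 7.4%. The lower genes were MB21D1, the DNA sensor cGAS, with NSD2-1 and NSD2-3 (21.9 and 15.4 in Ctr-KD and 8.28, 14.2 and 7.81 in NSD2-KD libraries) and TRAF6, a signalling ubiquitin ligase, with NSD2-2 (47.6 and 43.2 against 43.3, 27.3 and 42.0), both named after their values were seen. Of 15 further JAK-STAT genes 13 were tested and limma called 0. Counted higher with NSD2-1, NSD2-2 and NSD2-3 were 1, 2 and 2, and 0, 1 and 0 were lower. The same shares of all tested genes stand beside these counts. IFNGR1, a chain of the interferon gamma receptor chosen here after its values were seen, was at 25.7 and 38.1 in Ctr-KD and 62.6, 67.7 and 72.2 in NSD2-KD libraries (log2 difference 1.08, limma adjusted p = 0.198). SOCS1, an inhibitor of JAK kinases also chosen after its values were seen, was at 31.4 and 23.7 in Ctr-KD and 25.8, 56.8 and 75.2 with NSD2-1, NSD2-2 and NSD2-3.

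Of 56 other interferon-stimulated genes 42 were tested and limma called 0. With NSD2-1, NSD2-2 and NSD2-3, 2, 4 and 1 were counted higher, beside 3.44%, 4.38% and 3.85% of all tested genes. Counted lower were 1, 4 and 2, beside 7.13%, 9.93% and 7.4%. RSAD2, the antiviral radical SAM enzyme viperin, had 0 reads in every library. Of the 56, 10 had at most 3 reads in each library. The untested genes with more were named after their values were seen. IFI30 had 2 and 3 reads in Ctr-KD and 8, 12 and 9 in NSD2-1, NSD2-2 and NSD2-3. BATF2 had 1 and 1 against 5, 7 and 4, so both genes were higher with every siRNA. EPSTI1 had 11 and 11 against 5, 5 and 15, and APOBEC3G had 4 and 3 against 3, 8 and 3. These differences were not tested. DHX58, which encodes the RIG-I relative LGP2, was at 2.86 and 2.06 in Ctr-KD and 3.68, 5.46 and 1.95 in NSD2-KD libraries, near the limit of 3 reads.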

How the data were processed

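The 52 members, their roles and the further gene lists were chosen with earlier results of these data known. According to the study's methods, mRNA libraries were made with the NEBNext Ultra kit and sequenced single-end on a MiSeq. The authors used Trimmomatic for trimming, HISAT2 for alignment to hg19, SAMtools for selecting unique alignments and featureCounts for gene counts. The annotation and strand setting are not given in the sources used here. The deposited signal of each gene and library is the read count that the authors divided by a DESeq2 size factor. A shift common to every gene cannot be seen after such scaling. A second deposited table holds the authors' own comparison of both groups and was not used.

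Every value was a whole multiple of what 1 read is worth within 0.001 (100% of values in each library), so reads were recovered. The comparison of 2 Ctr-KD with 3 NSD2-KD libraries was made with limma 3.58.1 in R 4.3.3, on log2(normalized count + 1) with a trend of variance on mean, over 11313 genes with a mean of at least 10, adjusted by Benjamini-Hochberg, threshold 0.05. An exact permutation test of 2 against 3 cannot give a p below 0.1 and was not used. Fold changes on this scale are understated for low genes. Each siRNA was compared with both Ctr-KD libraries without a test, and counting intervals are exact conditional binomial for ratios and Poisson for single values; they cover counting error only. Alternatives were edgeR 4.0.16, DESeq2 1.42.0 and limma-voom on recovered reads, other pseudocounts, minimums and folds, quantile normalization, a replicate block, and leaving out each library. The fits were tested on simulated data. Members given in every library were those with groups that did not overlap, those past 1.5-fold with any siRNA, and the member with the highest mean of each role; DHX58, RSAD2, IFNB1, CXCL10 and CCL5 were always given, and 1 further gene of that rule is not reported here. IFIH1, DTX3L, genes named as such in the lists and genes of the MHC region were added after their values were seen. Overlaps come from GENCODE v44 on GRCh37. The siRNA sequences are not printed here.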

Additional observations from a re-analysis of the deposited data

How the results depend on the processing

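The 0 members called higher and 0 called lower stayed 0 under every alternative run: pseudocounts of 0.5 and 5, no minimum, a minimum of 50, no trend, robust limma, quantile normalization, edgeR, DESeq2, limma-voom and leaving out each library. This says little under any setting, since few genes of all were called. The main fit called 4 higher and 6 lower of 11313, and limma without a trend 0 and 1. Leaving out either Ctr-KD library also left 1 library in that group. With the NSD2-KD and Ctr-KD libraries of one number as a replicate block, 0 members were called in either direction and their median was 0.06, while 18 genes of all were called higher and 84 lower, against 4 and 6 without it. The labels give no pairing, since an NSD2-KD number is that of the siRNA. Same-numbered libraries correlated at -0.015 and -0.027 in their deviations. Because Ctr-1 and Ctr-2 differed by little more than counting error, this could hardly have shown a shared batch. DESeq2 called 14 genes of all higher and 44 lower, edgeR 5 and 11. The members' median log2 difference in the 2 against 3 comparison ranged from 0.00094 without NSD2-KD replicate 2 to 0.10 without NSD2-KD replicate 1.

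Counts per siRNA moved more, because few members passed 1.5-fold. A pseudocount of 5 or quantile normalization left 1 lower member with NSD2-1 and 1 with NSD2-2. Higher with NSD2-1, NSD2-2 and NSD2-3 were 1, 2 and 4 members at a pseudocount of 5. Beside them stood 289, 374 and 314 of 11313 genes. After quantile normalization 1, 3 and 5 members were higher, beside 495, 688 and 526 genes. With no minimum (50 members with any read), 4, 7 and 12 members were higher and 3, 2 and 2 lower with NSD2-1, NSD2-2 and NSD2-3, beside 1538, 1648 and 1665 of 17187 genes higher and 1659, 2037 and 1704 lower. With a minimum of 50 (19 members), NSD2-1 had 1 lower member and a median log2 difference of 0.072, NSD2-2 had 1 lower member, and NSD2-3 had 1 higher and 0 lower. A fold of 2 left 0 higher and 1 lower with NSD2-1, 0 and 0 with NSD2-2, and 1 and 1 with NSD2-3. Leaving out 1 Ctr-KD library gave 1 to 2 lower members with NSD2-3, the 1 without Ctr-KD replicate 2. Without Ctr-KD replicate 1, 6 members were higher with NSD2-3, beside 576 of 11313 genes. Without Ctr-KD replicate 2 there were 4, beside 550 genes. With NSD2-2, 2 members were higher either way, beside 631 and 607 genes, and with NSD2-1 it was 1, beside 538 and 520. Depth limits the lowest genes, where 3 reads cannot be told from 0.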
